A study of Mus musculus with 50 samples.

Results

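Extl1 (ENSMUSG00000028838) is 1 of 12185 genes in a table of normalized hepatic read counts, and it is described here over all 50 libraries of that table. It was chosen because its values spread widely among these livers, so the spread of its levels is given as a description with no test, and tests are kept to its relation to labels, library measures and other genes. The libraries came from male mice, labelled F2 and described in the study's methods as N2 offspring of a backcross, in which chromosomes 4 and 6 derived from A/J segregate on a background that is otherwise C57BL/6J. The animals were labelled adult, no treatment was given in the labels, and the tissue was liver. Per the study's methods the mice had fasted overnight before they were measured and liver was taken. Those methods also give an age, which is not reported here. All 50 libraries therefore formed 1 group, there was no parental control group, and the labels gave no genotype, so no comparison below is between genotypes. A chromosome substitution strain carries a whole chromosome of a donor strain, and its backcross offspring carry recombined pieces of it, which means that genes far apart on the substituted chromosome can vary together.

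Extl1 encodes a member of the exostosin family of glycosyltransferases, the enzymes that build the sugar chain of heparan sulfate. Heparan sulfate is made on a short linker attached to a core protein such as a syndecan or glypican, is elongated by the Ext1 and Ext2 polymerase with help from the Extl enzymes, is then trimmed and sulfated, and is finally broken down in lysosomes. In liver, heparan sulfate on hepatocytes takes part in the clearance of lipoprotein remnants from the blood.

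Extl1 lies on the minus strand of chromosome 4 (GRCm38, 134356372 to 134383850), between Slc30a2 and Pafah2, and no other annotated gene overlaps it. Its exons cover 4333 bases. The promoter window of the RefSeq start, 250 bases before it and 50 after it (GRCm38.p6, chr4:134372498-134372797, minus strand), is shown because Extl1 itself is the gene that varied. The capitals mark the only CCAAT box found on either strand.
Extl1 promoter: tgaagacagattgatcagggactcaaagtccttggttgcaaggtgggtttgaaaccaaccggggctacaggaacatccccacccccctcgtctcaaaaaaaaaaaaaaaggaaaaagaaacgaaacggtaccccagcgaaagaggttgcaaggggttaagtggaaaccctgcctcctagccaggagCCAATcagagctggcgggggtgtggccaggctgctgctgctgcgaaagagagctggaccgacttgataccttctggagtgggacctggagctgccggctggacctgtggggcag
CCAAT began 64 bases before the RefSeq start and occurred in 37.4% of 32851 mouse promoter windows of the same length. Neither TATAAA, found in 13.6% of the windows, nor GGGCGG, found in 35.7%, occurred in it on either strand. The GC content of the window was 55.3%, against a median of 52.7% over all promoter windows. The RefSeq start lies inside the gene body given above, which was taken from GENCODE.

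Extl1 was expressed at a low level with a wide range. Its value, in normalized CPM (reads scaled by the authors with a factor per library), was 5.43 ± 4.54 (SD, n = 50). The lowest value was 0.325, the lower quartile 1.41, the median 3.03, the upper quartile 9.23 and the highest 14.7, a 45.4-fold range. Behind them stood between 6 and 447 reads of Extl1, and 47 in the median library. In the lowest library the 6 reads gave an exact Poisson 95% interval of 0.119 to 0.706, which covers counting error only. Counting error of this kind was 1.79% of the variance of the untransformed values. Its share of the variance of the log2 values was not computed.

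**Figure D1:**
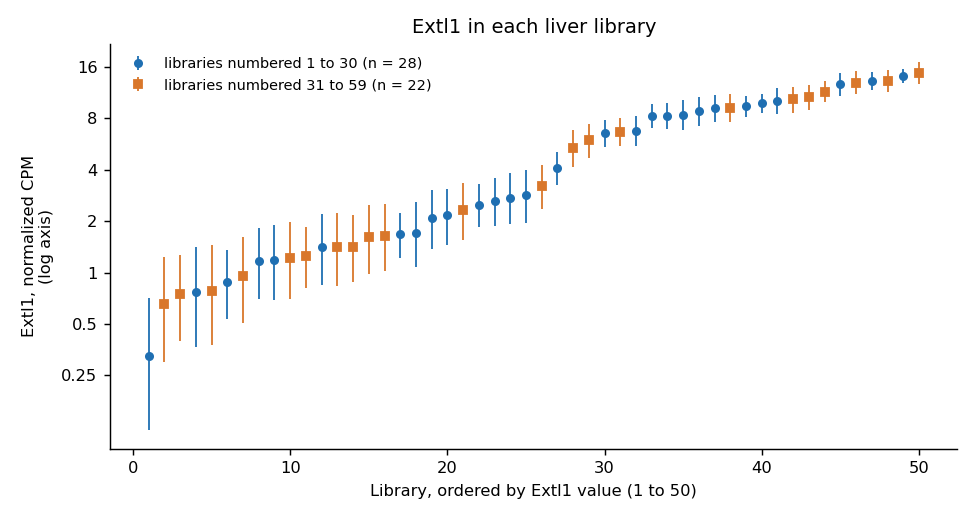
Extl1 in each of the 50 libraries, ordered from lowest to highest (horizontal axis) with its normalized CPM on a log axis (vertical), exact Poisson 95% intervals as bars, and libraries numbered 1 to 30 (circles, n = 28) and 31 to 59 (squares, n = 22) marked apart. The values climb from 0.325 to 14.7, both sets of library numbers run through the whole range, and no 2 neighbouring intervals are apart.

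Most values lay either between 1 and 4 or above 8. There were 1 library under 0.5, 6 between 0.5 and 1, 11 between 1 and 2, 8 between 2 and 4, 6 between 4 and 8, and 18 between 8 and 16. The widest gap in the ordered log2 values that left at least 6 libraries on each side separated 27 libraries at or under 4.09 from 23 libraries at or above 5.38. That gap was 0.36 on the log2(value + 0.5) scale and ranked 54 among the gaps of 11436 genes. Of the 49 pairs of neighbours in the order, 0 had Poisson intervals that were apart, so the order of neighbouring libraries is not resolved by these counts. The SD of Extl1 on the log2(value + 0.5) scale was 1.27, which ranked 26 of 11436 genes and 13 of 729 on chromosome 4. The median SD over all genes was 0.23.

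Extl1 was compared with the 2 labels that could follow the handling of the samples. Libraries numbered 1 to 30 had 5.49 ± 4.32 (SD, n = 28) and libraries numbered 31 to 59 had 5.35 ± 4.90 (SD, n = 22), and the 2 sets overlapped over nearly the whole range. The difference, later set minus earlier, was -0.15 on the log2 scale (SE 0.35, adjusted p = 0.814, limma). The slope of Extl1 on animal number was 0.47 log2 per 100 animals (SE 0.34, adjusted p = 0.367, limma). The share of all genes called was 13.5% for the set difference and 14.2% for animal number. Among 3 measures of the libraries, Extl1 followed neither the number of reads (Pearson r = 0.0665, Spearman rho = 0.0226, permutation p = 0.651 and 0.878) nor the share taken by the 10 highest genes (r = 0.11, rho = 0.0814, permutation p = 0.454 and 0.576), although r with the latter was -0.220 in libraries 1 to 30 and 0.456 in libraries 31 to 59. It rose with the GC slope of the library, the slope of the library's log2 values relative to the mean library on the GC content of the genes (r = 0.396, permutation p = 0.00436, adjusted 0.0131; rho = 0.393, permutation p = 0.0046, adjusted 0.0138; n = 50). When the 2 libraries with the most extreme GC slope were left out, r was 0.450, and within the 2 sets of library numbers r was 0.270 and 0.549.

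The 50 libraries carried 48 animal numbers, and the 2 numbers that stand on a pair of libraries gave unlike pairs. Libraries 8 and 10, which share an animal number, had Extl1 at 8.28 (95% interval 6.89 to 9.87) and 6.54 (5.44 to 7.81). Their intervals overlap, but Cyp4a32, a cytochrome P450 of the fatty acid hydroxylase family, was 342 in the former and 70.0 in the latter. Libraries 22 and 55, which share the other, had Extl1 at 2.16 (1.46 to 3.08) and 5.38 (4.17 to 6.83), and these intervals do not overlap. The counts of genes varying with Extl1 over all libraries were therefore also taken without these 4.

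The next question was which genes rose and fell with Extl1, and where they lie. For each of 11435 other genes with a mean of at least 1, the slope on Extl1 was fitted on the log2(value + 0.5) scale, so that a slope of 1 is a log2 change of 1 per log2 unit of Extl1. Of these genes 574 (5.02%) passed an adjusted p of 0.05, of which 320 (2.8%) rose with Extl1 and the rest (2.22%) fell. Chromosome 4 held 81 called genes of 728, 44 rising and 37 falling, and its share of 11.1% was the highest of 20 chromosomes. Chromosome 19 came next with 7.49%, chromosome 6, the other substituted chromosome, had 3.13%, and all genes off chromosome 4 together had 4.6%. Without the 4 libraries that share animal numbers 751 genes were called, 97 of them on chromosome 4. With each library left out in turn it ranged from 280 to 813, and it moved by over 1.5 times without library 9 (331), 11 (381), 15 (330), 23 (280), 42 (310) or 59 (377). The number on chromosome 4 ranged from 53, without library 23, to 105. On plain CPM the total was 485, of which 310 fell, and on chromosome 4 it was 80, of which 48 fell, so the balance of directions depends on the scaling.

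The share of genes called was higher close to Extl1 than at the far end of the chromosome, without a steady decline between. Within 1 Mb of the Extl1 start 7 of 29 genes were called (24.1%), between 1 and 5 Mb 16 of 102 (15.7%), and between 5 and 10 Mb 6 of 75 (8%). The share was then 12.2% between 10 and 20 Mb, 10.5% between 20 and 40 Mb, 11.1% between 40 and 80 Mb and 7.02% between 80 and 140 Mb. With 5 principal components of the genes off chromosomes 4 and 6 as covariates, 157 genes (1.37%) were called. Chromosome 4, which did not enter these components, held 46 of them (6.32% of its tested genes), against 1.04% of genes off it. In that fit the share within 1 Mb was again 24.1%. It was 12.7% between 1 and 5 Mb, 1.33% between 5 and 10 Mb, 6.8% between 10 and 20 Mb, 3.51% between 20 and 40 Mb, 10% between 40 and 80 Mb and 1.17% between 80 and 140 Mb.

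**Figure D2:**
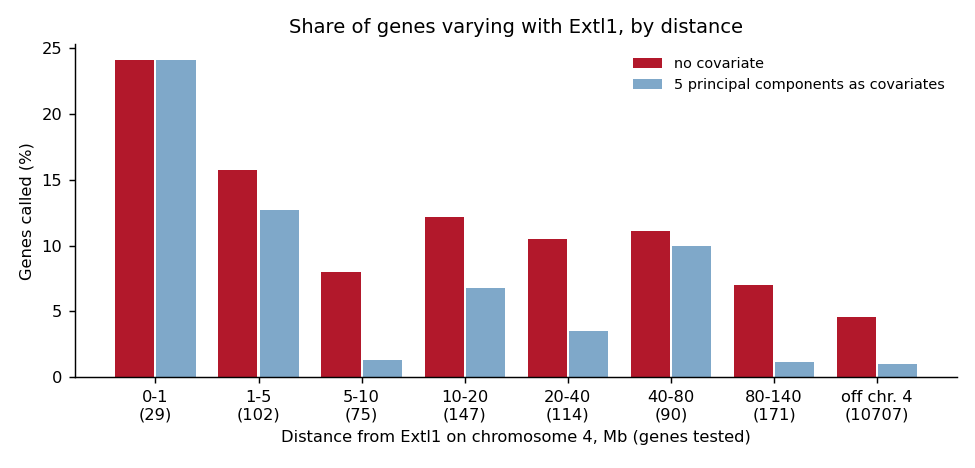
Percentage of tested genes called as varying with Extl1 (vertical) by distance from the Extl1 start on chromosome 4 and for all genes off chromosome 4 (horizontal, number tested in parentheses), without covariates (dark bars) and with 5 principal components as covariates (light bars). Both bars stand at 24.1% within 1 Mb, and the genes off chromosome 4 stand at 4.6% and 1.04%.

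**Figure D3:**
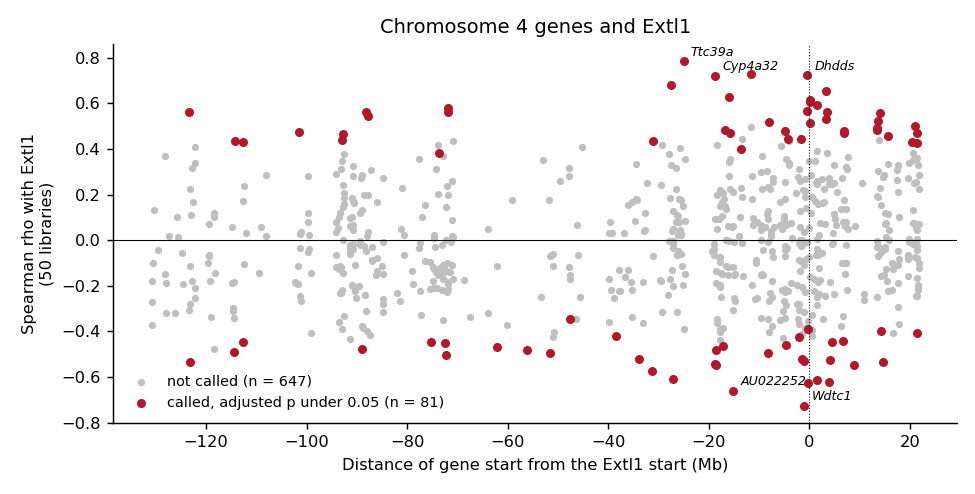
Spearman rho with Extl1 over 50 libraries (vertical) for the 728 tested genes of chromosome 4, by distance of the gene start from the Extl1 start in Mb (horizontal, genes at lower coordinates to the left), with the 81 called genes in red. Called genes of both signs run along the whole chromosome, with Ttc39a at 24.98 Mb and Cyp4a32 at 18.8 Mb among the highest and Wdtc1 at 1.03 Mb the lowest.

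The gene most like Extl1 in its pattern was not on chromosome 4. Over the 50 libraries the 10 genes with the highest Spearman rho were Nudc-ps1 (0.820), Ttc39a (0.785), Ppt1 (0.730), Dhdds (0.723), Cyp4a32 (0.720), Tldc1 (0.692), Gm15501 (0.687), Acot11 (0.681), Alpl (0.652) and Def8 (0.649), of which 6 lie on chromosome 4. The 5 lowest were Wdtc1 (-0.725), Sirt1 (-0.719), Slc5a3 (-0.684), Slc35g1 (-0.679) and AU022252 (-0.660), of which Wdtc1 and AU022252 lie on chromosome 4. These coefficients are over libraries that share the Extl1 values, and several of these genes fall into separate levels, so the coefficients within levels are given further on.

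Nudc-ps1, a processed pseudogene on chromosome 8 (GRCm38, 29286431 to 29286981, minus strand), was close to 0 in some livers and plainly present in others. Its lowest value was 0, its median 0.0942 and its highest 12.4 normalized CPM. In 27 libraries it was at or under 0.656 (at most 10 reads, and 0 reads in 20 of them), and in the other 23 it was at or above 4.55 (at least 59 reads). Extl1 ran from 0.325 to 5.38 with a median of 1.42 in the former and from 2.08 to 14.7 with a median of 9.44 in the latter. The ranges of Extl1 in these levels overlapped between 2.08 and 5.38. Library 55 had Extl1 at 5.38 with Nudc-ps1 at 0.0803, library 25 had 4.09 with 0.0525, and library 1 had 2.08 with 4.55. The slope of Nudc-ps1 on Extl1 was 1.35 (SE 0.096, adjusted p = 2.44e-15), or 2.11 with edgeR and 2.45 with DESeq2 on the recovered reads, and rho was 0.835 in libraries 1 to 30 and 0.823 in libraries 31 to 59. The mean of Nudc-ps1, 3.21, passed the filter through the libraries at its high level, where Extl1 was above 5 in 22 of 23. The slope and its p-value therefore mostly describe that split of the libraries.

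The parent gene of this copy, Nudc, a chaperone linked to the dynein motor, lies on chromosome 4 at 0.838 Mb from Extl1. Of all 31-base stretches of Nudc-ps1 88.1% also occur in Nudc transcripts, and over 551 aligned bases the copy differed from Nudc at 2 (99.64% identity), with 1 gap beside. A window of 60 bases from each, given 5′ to 3′ on the strand of the gene from GRCm38, shows how little separates them, with the differing base in capitals.
Nudc-ps1, chr8:29286917-29286976, minus: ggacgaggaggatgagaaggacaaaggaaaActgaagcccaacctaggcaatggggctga
Nudc, chr4:133534466-133534525, minus: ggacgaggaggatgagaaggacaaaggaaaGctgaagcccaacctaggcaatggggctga
The window lies in a coding exon of Nudc. Counts of such near-identical genes are uncertain, because reads can be assigned to either member, and whether reads of Nudc were counted at Nudc-ps1 was not tested. Nudc itself ran from 37.3 to 62.0 normalized CPM with a median of 45.04 and a slope of 0.035 (SE 0.019, adjusted p = 0.284). Nudc-ps1 made up at most 16.6% of the summed Nudc and Nudc-ps1 values, and the sum of both had a rho of 0.588 with Extl1. The rho between Nudc-ps1 and Nudc was 0.371.

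Gm15501, a transcribed processed pseudogene on chromosome 7 (GRCm38, 93178983 to 93184176), ran from 0 to 3.90 normalized CPM with a median of 0.283. Its slope on Extl1 was 0.73 (SE 0.074, adjusted p = 6.13e-10), and 1.36 with edgeR or DESeq2 on the recovered reads. Its mean of 1.14 passed the filter through the libraries at its high level, where Extl1 was mostly high. Of its 31-base stretches 75.5% also occur in transcripts of other genes, so its counts are uncertain too.

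**Figure D4:**
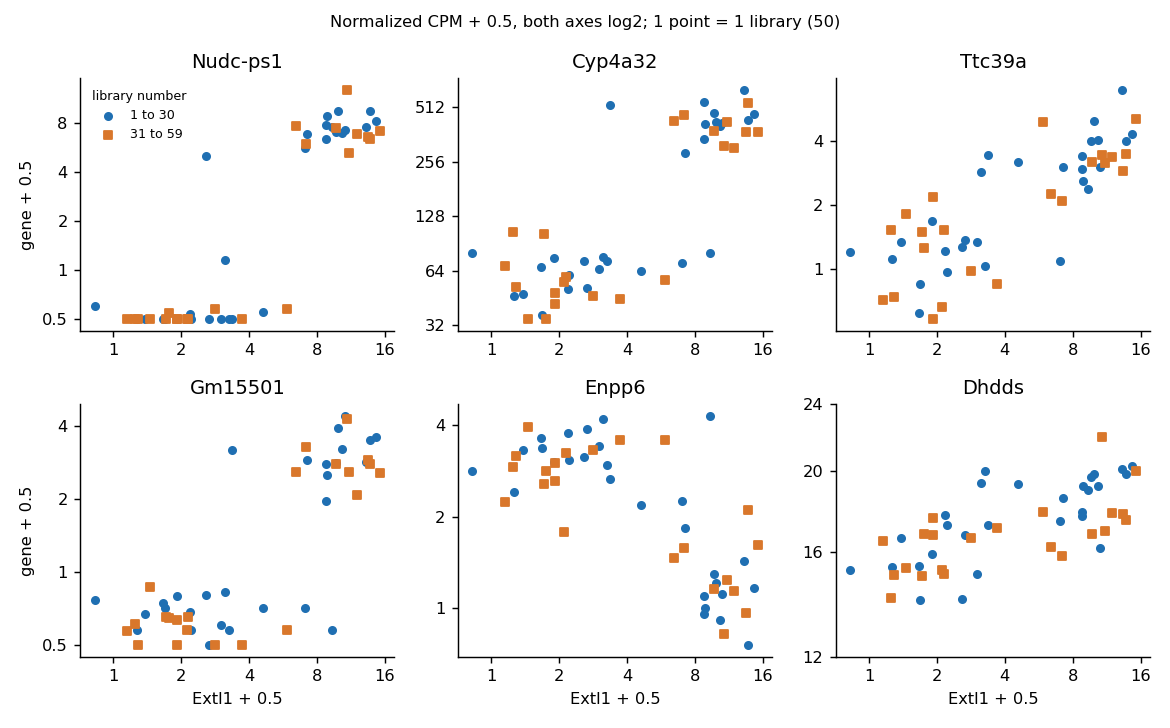
Extl1 (horizontal) against Nudc-ps1, Cyp4a32, Ttc39a, Gm15501, Enpp6 and Dhdds (vertical), each as normalized CPM + 0.5 on log2 axes, with 1 point per library and the 2 sets of library numbers marked by circles and squares. Nudc-ps1, Cyp4a32 and Gm15501 fall into separate low and high levels, whereas Dhdds rises without a break.

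On chromosome 4 the 10 genes of smallest p were 7 that rose with Extl1 and 3 that fell. Cyp4a32, at 18.8 Mb toward lower coordinates, ran from 33.9 to 639 normalized CPM with a median of 77.6, and its slope was 0.96 (SE 0.091, adjusted p = 1.33e-10). It shares 49.2% of its 31-base stretches with Cyp4a10 and 37.9% with Cyp4a31, so its counts are uncertain. Ttc39a, a tetratricopeptide repeat gene at 24.98 Mb, ran from 0.0785 to 6.48 with a median of 1.63 and a slope of 0.59 (SE 0.062, adjusted p = 1.88e-09). Acot11, an acyl-CoA thioesterase at 27.6 Mb, ran from 0.877 to 7.95 with a slope of 0.38 (SE 0.059, adjusted p = 4.56e-05). Ppt1, the lysosomal palmitoyl-protein thioesterase, and Alpl, the tissue-nonspecific alkaline phosphatase, had slopes of 0.082 (SE 0.013, adjusted p = 4.56e-05) and 0.16 (SE 0.025, adjusted p = 5.53e-05). The 2 genes of smallest p that fell were AU022252 (-0.13, SE 0.018, adjusted p = 1.56e-06) and Wdtc1, a WD and tetratricopeptide repeat protein 1.03 Mb away (-0.13, SE 0.017, adjusted p = 2.35e-06). Wdtc1 had its lowest value at 65.2 and its median at 94.4, and its slope was small beside that of Nudc-ps1.

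The livers did not switch all of these genes together. In library 30 Extl1 was 2.85 and Nudc-ps1 was 0, but Cyp4a32 was 527 and Gm15501 was 2.68, both at their high level. In libraries 10 and 26 Extl1 was 6.54 and 8.81 and Nudc-ps1 was 5.16 and 7.16, but Cyp4a32 was 70.0 and 79.6 and Gm15501 was 0.213 and 0.0786. Cyp4a32 and Gm15501 thus stayed at their low level in a pair of libraries where Extl1 and Nudc-ps1 were at their high level.

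Within each Nudc-ps1 level the coefficients of these genes with Extl1 covered a wide range, and differences between genes were not tested. Over the 27 low and the 23 high libraries, rho with Extl1 was 0.0391 and 0.299 for Cyp4a32, -0.0833 and 0.367 for Gm15501, 0.0653 and -0.136 for AU022252, 0.231 and -0.303 for Enpp6, and 0.275 and 0.245 for Nudc-ps1 itself. It was 0.346 and 0.715 for Ttc39a, 0.668 and 0.537 for Dhdds, 0.449 and 0.571 for Ppt1, 0.414 and 0.469 for Alpl, and -0.465 and -0.0306 for Wdtc1. Among the genes off chromosome 4 it was 0.645 and 0.779 for Tldc1, -0.497 and -0.844 for Slc35g1, -0.585 and -0.597 for Slc5a3, and -0.529 and -0.372 for Sirt1. These are descriptions over levels that were defined from the data. With Nudc-ps1 as a covariate 906 genes (7.92%) were called.

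The immediate neighbours of Extl1 included genes that rose and genes that fell, and most were not called. Of 30 genes that start within 1 Mb, 29 passed the filter on the mean, Crybg2 being the exception, and 5 rose and 2 fell. Dhdds, which makes the dolichol backbone needed for N-glycosylation, ran from 13.5 to 21.4 normalized CPM with a median of 16.7, and its slope was 0.085 (SE 0.014, adjusted p = 0.000103). Selenon, a selenoprotein of the endoplasmic reticulum at 0.168 Mb, had a slope of 0.16 (SE 0.029, adjusted p = 0.000427). The other risers were Mtfr1l (0.066, SE 0.013, adjusted p = 0.00175), Rps6ka1, a ribosomal S6 kinase (0.15, SE 0.032, adjusted p = 0.0058), and Paqr7, a membrane progesterone receptor (0.14, SE 0.035, adjusted p = 0.0222). Cep85, a centrosomal protein 0.197 Mb away, ran from 11.5 to 36.6 with a median of 21.6 and fell by a slope of -0.21 (SE 0.036, adjusted p = 0.000297). Sh3bgrl3 fell by -0.11 (SE 0.033, adjusted p = 0.0356), and it lost the call in 7 of 50 fits that left out 1 library. With Nudc-ps1 as a covariate the slope of Cep85 was 0.12 and that of Sh3bgrl3 was 0.0013, neither of them called. In the same limma fit the risers Selenon (adjusted p = 0.287), Mtfr1l (0.404), Rps6ka1 (0.290) and Paqr7 (0.477) also lost their calls. Dhdds kept its call there (adjusted p = 0.00868). Paqr7 was also not called with 5 principal components. Pafah2, the neighbour that starts 0.0125 Mb away, ran from 82.1 to 124.9 with a slope of -0.0070 (SE 0.015, adjusted p = 0.823), and with Nudc-ps1 as a covariate its slope was 0.095 and called. The 22 neighbours not called, Pafah2 among them, had slopes from -0.14 (Rsrp1) to 0.078 (Zfp593) and adjusted p-values from 0.0504 to 0.964. Of these 22, 4 were called with Nudc-ps1 as a covariate (Kdf1, Nr0b2, Pafah2 and Tmem50a) and Hmgn2 was called with 5 principal components.

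Away from chromosome 4 the genes of smallest p, beside the 2 pseudogenes, were mostly falling ones with modest slopes. Enpp6, a choline-releasing phosphodiesterase on chromosome 8, ran from 0.257 to 3.77 with a median of 1.98, and its slope was -0.44 (SE 0.054, adjusted p = 2.05e-07). Sirt1, the NAD-dependent deacetylase on chromosome 10, ran from 5.15 to 9.95 with a slope of -0.13 (SE 0.019, adjusted p = 4.9e-06). Rock2, a protein kinase (-0.12, SE 0.019), Slc35g1 (-0.20, SE 0.033) and Slc5a3, a myo-inositol transporter (-0.25, SE 0.041), followed with adjusted p-values of 0.000107, 0.000109 and 0.000146. The other genes off chromosome 4 with the smallest p that rose were Tldc1 (0.13, SE 0.022, adjusted p = 0.000291), B230118H07Rik (0.11, SE 0.020, adjusted p = 0.00158) and Mpst, a mercaptopyruvate sulfurtransferase (0.11, SE 0.021, adjusted p = 0.00167), of which B230118H07Rik and Mpst were not called with 5 principal components. The median GC content of the genes that rose was 54.1%, of those that fell 44.1% and of all genes 49.4%, and Extl1 itself has 57.3%. With the GC slope of the library as a covariate 241 genes (2.11%) were called.

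The slopes were then taken in each set of library numbers alone. In libraries 1 to 30 the number called was 10 (0.0875%), and all 10 had the same sign in libraries 31 to 59, 9 of them with an unadjusted p under 0.05 there. In libraries 31 to 59 it was 15 (0.131%), all 15 had the same sign in libraries 1 to 30, and 12 had an unadjusted p under 0.05 there. The 6 genes called in both were AU022252, Cyp4a32, Enpp6, Gm15501, Nudc-ps1 and Ttc39a. The difference of the slopes between the sets was called for 0 of 11435 genes by limma (0%), with an unadjusted p under 0.05 for 407 (3.56%).

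Extl1 was next set beside the genes that make, carry and break down heparan sulfate. Of 61 such genes besides Extl1, 46 were in the table and 44 were tested, of which 4 rose and 0 fell at an adjusted p under 0.05, where 2.8% of all genes rose and 2.22% fell. The median slope over the 44 was 0.014, against -2.02e-05 over all genes tested. None of the 4 calls was made with 5 principal components as covariates, and the number was 1 with animal number as a covariate, where 1.69% of all genes were called, and 2 on plain CPM.

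In the exostosin family, the enzymes of the polymerisation step, 0 of 4 other members were called, where 5.02% of all genes were, a share at which 4 genes say little. The slopes were 0.034 for Ext2 (SE 0.015, adjusted p = 0.173), 0.024 for Ext1 (SE 0.017, adjusted p = 0.408), 0.027 for Extl2 (SE 0.025, adjusted p = 0.554) and -0.030 for Extl3 (SE 0.018, adjusted p = 0.324). Ext1 and Ext2 form the chain polymerase, and Extl2 and Extl3 act at the start of the chain. Per kilobase of exon the levels were 3.91 ± 0.40 for Ext1, 3.83 ± 0.41 for Extl3, 3.41 ± 0.32 for Ext2, 1.40 ± 0.24 for Extl2 and 1.25 ± 1.05 for Extl1 (SD, n = 50), in normalized CPM. Ext1 and Extl3 are not separated by their spread, nor are Extl2 and Extl1. At its highest Extl1 reached 3.40 per kilobase, within the range of Ext1, Ext2 and Extl3, and at its lowest it was 0.0749, below the 1.01 that was the lowest of Extl2.

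**Figure D5:**
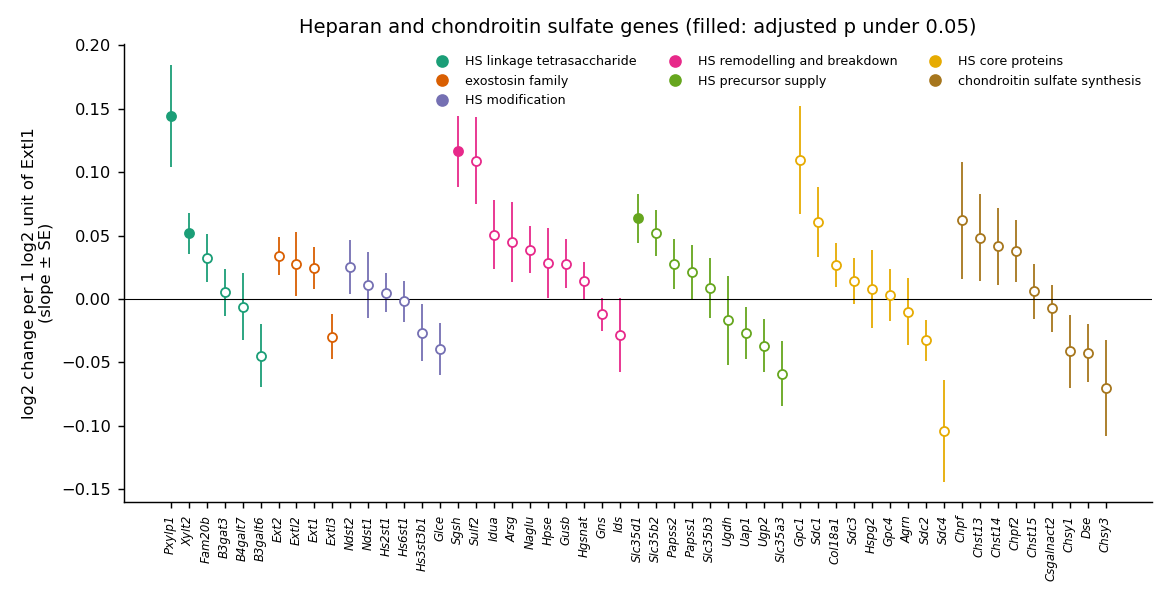
Slope on Extl1 with its SE (vertical, log2 change per log2 unit of Extl1) for the 53 tested genes of heparan sulfate and chondroitin sulfate, coloured by step and ordered by slope within a step, with filled points for an adjusted p under 0.05. The 4 filled points are Pxylp1, Xylt2, Sgsh and Slc35d1, and no slope is as large as 0.15.

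By step, 2 of 6 tested genes of the linkage region rose. Xylt2, the xylosyltransferase that places the first sugar on the core protein, had a slope of 0.052 (SE 0.016, adjusted p = 0.0485), and Pxylp1, the phosphatase of the linkage xylose, had 0.14 (SE 0.040, adjusted p = 0.0285). Of 10 tested genes of remodelling and breakdown Sgsh rose, the lysosomal sulfamidase, from 4.18 to 10.4 normalized CPM over the libraries with a median of 6.32 and a slope of 0.12 (SE 0.028, adjusted p = 0.013). Sulf2, an extracellular sulfatase, had 0.11 (SE 0.034, adjusted p = 0.0504). Of 9 precursor genes Slc35d1 rose, a nucleotide sugar transporter that itself lies on chromosome 4, with 0.064 (SE 0.020, adjusted p = 0.0455). Among 6 tested sulfation and epimerisation genes and 9 core proteins 0 were called, and the core proteins included the largest negative slope of the lists, -0.10 for Sdc4 (SE 0.040, adjusted p = 0.114). Of 9 tested genes of chondroitin sulfate, the related chain built on the same linker, 0 were called. Xylt2 lost its call in 30 and Slc35d1 in 26 of 50 fits that left out 1 library, and Pxylp1 lost it in 4, whereas Sgsh kept it in all.

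Markers of cell types that a liver sample can hold were read from the same fit. The 5 hepatocyte markers summed to between 70941 and 116779 normalized CPM in every library, and their sum, most of it Alb, had a rho of 0.171 with Extl1. Hnf4a, a hepatocyte transcription factor of the same list, had a slope of -0.086 (SE 0.030, adjusted p = 0.0771) and a rho of -0.439. In all, 0 of 34 tested markers of hepatocytes, cholangiocytes, stellate cells, endothelium, Kupffer cells, lymphocytes, erythroid cells, neutrophils, pancreas and adipose tissue were called, where 5.02% of all genes were. The summed markers ranged from 3.43 to 9.50 for cholangiocytes (rho 0.236), from 66.7 to 153 for stellate cells (rho 0.198) and from 1.11 to 57.1 for adipose tissue, where a single gene was in the table (rho 0.211). Of 6 skeletal muscle markers 0 were in the table. In such bulk tissue, fewer cells of a type and less RNA per cell cannot be told apart.

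Extl1 was also set beside the other genes of this cross that vary most. Eno1b, an enolase gene on chromosome 18, ran from 0 to 42.8 normalized CPM with a median of 0.252, and its slope on Extl1 was 1.04 (SE 0.27, adjusted p = 0.0215, rho 0.553). Its mean of 12.5 passed the filter through the libraries where it was high. The widest gap in its ordered log2 values was 4.46, and the sequence that Eno1b shares with other genes was not counted. Whether reads of another gene were counted at Eno1b was not tested. The call was lost with edgeR and with DESeq2 on the recovered reads and with 5 principal components, and with Nudc-ps1 as a covariate the slope was -0.21 and not called. Mup12, a major urinary protein gene 73.6 Mb away on chromosome 4, ran from 1.01 to 2450.2 with a slope of 1.15 (SE 0.30, adjusted p = 0.0222, rho 0.384). Gm13394 on chromosome 2, the gene with the widest log2 spread in the table, had a slope of -0.25 (SE 0.35, adjusted p = 0.72, rho 0.00629). Of 8 other genes that the study singles out with these data, 0 were called, where 5.02% of all genes were.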

How the data were processed

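RNA-seq libraries of mouse liver (50 libraries with 48 animal numbers) were analysed. The number of mice that the study's text gives differs from both. Per the labels and the study's methods, the authors prepared stranded mRNA libraries, trimmed adapters, aligned reads with HISAT2 to GRCm38.p5, counted them per gene with HTSeq (version 0.11.1), removed low genes and normalized with edgeR. The deposited values, a normalized signal per gene with no stated unit, sum to between 886171 and 1120650 per library and are called normalized CPM here. They are whole reads times a factor per library: 100% of values were whole within 0.01 reads. Depth was 11965594 to 29976557 reads (median 13620584), and 1 read was worth 0.0317 to 0.0864.

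Extl1 was the predictor in limma 3.58.1 (R 4.3.3) on log2(value + 0.5) over genes with a mean of at least 1, 2-sided, with Benjamini-Hochberg adjustment over 11435 genes. edgeR 4.0.16 and DESeq2 1.42.0 on the recovered reads, other pseudocounts, filters, scalings, covariates and subsets of libraries were alternatives. The self-test at this number of genes recovered 100 of 100 planted slopes of 0.3 and 100 of 100 of 0.6, with 4 other genes called. Slopes under 0.3, such as those of the heparan sulfate genes, were not planted, and each gene was drawn independently of the others. The self-test therefore does not show how often such slopes are found, or how many calls arise from variation that genes share. Nothing says that libraries came from separate animals in every case, so p-values measure the spread between these libraries. Extl1, the gene lists and the tests were chosen with earlier results of these data known. Genes named are those within 1 Mb of Extl1, the 10 of smallest p on chromosome 4 and 5 in each direction elsewhere, the 10 highest and 5 lowest by rho, called members of the heparan sulfate lists with the exostosin family, and 3 widely varying genes; Nudc, Sulf2 and Sdc4 were added after their values were seen. Positions and sequences are from GENCODE M21 and RefSeq (GRCm38). Shared sequence was counted as the share of a gene's distinct 31-base stretches that occur in transcripts of another gene.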

Additional observations from a re-analysis of the deposited data

How the results depend on the processing

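The number of genes varying with Extl1, 574, moved to 193 with animal number, to 157 with 5 principal components and, in covariates chosen after seeing the data, to 241 with the GC slope of the library, 906 with Nudc-ps1 and 1416 with both. It was 10 in libraries 1 to 30 alone and 15 in libraries 31 to 59 alone, where fewer samples enter the fit. The chromosome 4 count of 81 moved to 45, 46 and 53 with animal number, principal components and GC slope, and was 5 and 6 in the 2 sets. The heparan sulfate and chondroitin sulfate count of 4 was 2 on plain CPM, 1 with animal number, 0 with principal components and in each set, 2 with GC slope, 9 with Nudc-ps1 and 11 with Nudc-ps1 and GC slope. Leaving out 1 library at a time, chosen after seeing the data, gave 280 to 813 genes, 53 to 105 of them on chromosome 4. The cause of these shifts was not tested.

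Among the genes described one by one, slopes turned sign with Nudc-ps1 as a covariate for Cep85 (0.12), Eno1b (-0.21), Sh3bgrl3 (0.0013), Gm13394 (0.11) and Pafah2 (0.095), and with Nudc-ps1 and GC slope for Cep85 (0.12), Eno1b (-0.22), Gm13394 (0.15), Pafah2 (0.098) and Nudc (-0.0046). They did so with principal components for Ext2 (-7.19e-05), Extl3 (0.019) and Ext1 (-0.0021), in libraries 1 to 30 for Extl2 (-0.0011) and in libraries 31 to 59 for Gm13394 (0.35) and Pafah2 (0.0019). Of the 22 neighbours not called, 6 turned sign with Nudc-ps1 and 4 with principal components. Of 31 named genes that were called, 22 kept the call under every alternative over both sets that tested them, the covariates chosen after seeing the data aside, and in every fit without 1 library. With Nudc-ps1 as a covariate, 14 of the called named genes other than Nudc-ps1 kept the call. In that fit 13 lost it with the same sign, and 3 turned sign and were not called. The pseudocount, the predictor's scale, edgeR and DESeq2 left the 3 counts within 1.5 times, and the mean level of Extl1 and its comparison with both labels did not change side. No paired analysis was possible because all libraries form 1 group.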

Other observations

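With Nudc-ps1 as a covariate, chosen after seeing the data, 906 genes (7.92%) varied with Extl1, 500 rising and 406 falling, and chromosome 4 then held 85 of 728 (11.7%) against 7.67% of genes off it. The covariate and Extl1 had a Pearson r of 0.891 on the log2 scale, so slopes in that fit rest on the part they do not share. The genes that follow are among those of smallest p in that fit and were chosen after their values were seen. Their coefficients within the Nudc-ps1 levels come from the same libraries and are no separate support. Hsd17b6, a hydroxysteroid dehydrogenase on chromosome 10 with 92.4 ± 41.6 normalized CPM (SD, n = 50), had a slope of -0.73 (SE 0.11, adjusted p = 0.000134, limma). Tgfbr2, a receptor subunit for transforming growth factor beta, rose by a slope of 0.37 (SE 0.058, adjusted p = 0.000134), and Fbxw8, a subunit of a ubiquitin ligase, by 0.19 (SE 0.030, adjusted p = 0.000134). Gabarapl1, an autophagy protein, fell by -0.38 (SE 0.060, adjusted p = 0.000134). With the GC slope of the library added, these 4 slopes were -0.76, 0.38, 0.19 and -0.38. Over the 27 libraries low and the 23 libraries high in Nudc-ps1, rho with Extl1 was -0.636 and -0.475 for Hsd17b6, 0.598 and 0.788 for Tgfbr2, 0.763 and 0.691 for Fbxw8 and -0.638 and -0.616 for Gabarapl1. Without the covariate, over all 50 libraries, rho was -0.270 for Hsd17b6, 0.459 for Tgfbr2, 0.608 for Fbxw8 and -0.463 for Gabarapl1.

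Library 24 had 10 reads of Nudc-ps1, a value of 0.656, between the libraries at 0 to 0.108 and those at 4.55 or above, with Extl1 at 2.62. Without it 650 genes were called. The pseudogenes Nudc-ps1 and Gm15501 were at 0 reads in some libraries, so the slopes of these 2 genes depend on the pseudocount, from 1.80 at 0.1 to 1.20 at 1 for Nudc-ps1 and from 0.98 to 0.61 for Gm15501.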
